A study of Homo sapiens with 10 samples.

Results

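Tamoxifen added to an estrogen in A549 cells was measured on 4 of the 10 arrays of the series. A549 is an established human line from a lung adenocarcinoma. The arrays were chosen by their treatment labels: estradiol, estradiol with tamoxifen, estradiol joined to bovine serum albumin (here estradiol-BSA), and estradiol-BSA with tamoxifen. Each array with tamoxifen was set against the array with the same form of estrogen, which gives an estradiol pair and an estradiol-BSA pair. All cells had spent 4 h in medium with 10% charcoal-stripped serum, which is poor in steroids, before an exposure of 3 h. Both estrogen forms were given at 1 µM and tamoxifen at 10 µM, and another A549 array held cells with 0.1% ethanol as vehicle. The other 5 arrays hold the squamous line HTB-182 under the same treatments and enter here only where the lines are compared. The labels name no array with tamoxifen alone or albumin alone, so an effect of tamoxifen without estrogen, or of the albumin, cannot be told apart here. The title of the array with estradiol and tamoxifen names only tamoxifen, while its source description names both compounds. The source description was followed. If that array had received no estradiol, its pair would also hold the loss of the estrogen. Each treatment was 1 array and no separate cultures are stated, so p-values measure only how these 4 arrays spread, and that spread may be technical.

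Estradiol acts through the nuclear receptors ESR1 and ESR2, which bind DNA as ligand-activated transcription factors, and through signals that start at the plasma membrane. Estradiol-BSA is used because the coupled protein is meant to keep the steroid outside the cell. Tamoxifen competes with estradiol for ESR1 and ESR2 and acts as an antagonist or a partial agonist depending on the tissue, while it activates the membrane receptor GPER1. At micromolar doses it also binds enzymes of late cholesterol synthesis and gathers in lysosomes as a cationic amphiphile. The series used it as an inhibitor, and the comparison asks which early transcripts differed once it was present.

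The values are fluorescence intensities per probe set, on a linear scale, as the authors deposited them. Each gene was read from its brightest probe set, changes are differences of log2(intensity + 16), and 12976 genes at or above an intensity of 18.5 were tested. The 16 added to each value makes the change of dim genes look smaller. Median intensities of the 5 A549 arrays were 17.9 to 21.5. The A549 label was checked against markers: 12 of 14 adenocarcinoma markers on the array reached the filter, with AKR1B10 at a mean of 12557 and KRT18 at 9011 over the 4 arrays. NKX2-1 at 15.9 and SLC34A2 at 16.2, markers of alveolar lineage, did not. SFTPC (44.4), NAPSA (32.6) and SFTPB (28.4) were dim, with 46.7, 22.3 and 23.6 in HTB-182. EPCAM (507) and KRT19 (325) were lower than in HTB-182 (7207 and 1062). AKR1B10, KRT18, KRT7, KRT8, ALDH1A1, CEACAM6 and MUC1 were higher than there. Of all 19775 genes, 12976 reached the filter. Of other cell types 3 of 9 squamous, 3 of 7 neuroendocrine, 4 of 10 mesenchymal and 4 of 9 blood and endothelial markers reached it, led by SOX2 (a mean of 160), CHGB (103), COL1A1 (371) and CD14 (78.5). KRT14, COL1A2, PTPRC and CDH5 had means of 4.20 to 8.38. Summed blood and endothelial markers were 218 and 297 without tamoxifen and 213 on both arrays with it, and summed mesenchymal markers were 439 to 534 and 527 to 633. The part of these shifts in any result was not tested.

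The estradiol array stood apart from the rest. It differed by 2-fold or more from the other 3 arrays' mean in 69 genes, against 30 for the array with estradiol and tamoxifen, 18 for estradiol-BSA and 11 for estradiol-BSA with tamoxifen. Its ratio of 3′ to 5′ signal for ACTB, a measure of RNA integrity and labelling, was 2.66, while the other 3 arrays ran from 3.41 to 3.57 and vehicle was 3.27. For GAPDH the ratio was 1.45 on the estradiol array, 1.56 to 1.61 on the other 3 and 1.43 with vehicle. Because this array is a member of the estradiol pair, named genes are given per pair or array by array, and the count of genes past the threshold and the list medians it moved most are also given without it. The part of the ratio in the results was not tested.

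Of 12976 genes, 34 passed the test for tamoxifen in A549 (limma, Benjamini-Hochberg adjusted p under 0.05; 0.262% of the genes tested). Of these, 13 were higher with tamoxifen (0.100%) and 21 lower (0.162%). Only 22 of the 34 had the same sign in both pairs, 16 lower and 6 higher. The gene group that carries the comparison is small: 8 genes were at least 1.5-fold lower with tamoxifen in both pairs (0.0617%), none was 1.5-fold higher in both, and 7 of the 8 passed the test. This count of 8 was 24 with a pseudocount of 1 in place of 16, 4 with 64 and 3 with the mean of all probe sets of a gene. The unadjusted p was under 0.05 for 407 genes (3.14%), where 648.8 would be given by chance. The limma fit took its spread from the intensity trend over all genes, with infinite prior degrees of freedom. The disagreement of a gene's own pairs therefore hardly weighs on its p or its standard error (SE). Each SE given below is that of the fit and does not measure the gap between the 2 pairs. With each array scaled to the same trimmed mean, with quantile normalization, without pairing by estrogen form, or with the spread pooled over both lines, 0 genes passed, and 244, 251, 154 and 582 had an unadjusted p under 0.05. Fits that leave out an array dropped the pairing, since 3 arrays leave it no residual degree of freedom. Without the estradiol array 2 genes passed, without the array of estradiol and tamoxifen 1, without estradiol-BSA 197 and without estradiol-BSA and tamoxifen 22.

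The 2 pairs differed in how much they moved. The median size of the log2 difference was 0.18 in the estradiol pair and 0.09 in the estradiol-BSA pair, while both HTB-182 pairs were near the latter, at 0.08 and 0.09. At least 2-fold differences were seen for 27 higher and 51 lower genes in the estradiol pair and for 16 higher and 5 lower genes in the other. A single gene, TRIP6, was 2-fold apart in the same direction in both. The same sign in both pairs was found for 41.9% of genes in A549 and 56.9% in HTB-182. Both lines were read over the 12976 genes and probe sets chosen on the A549 arrays. Genes dim in HTB-182 are thus included, and their changes look smaller, so the lines are not on like terms. Across genes the pairs correlated at r = -0.20 in A549 and 0.15 in HTB-182. These are descriptions over genes, which are not independent replicates, and the arrays of a line share its cells. With 1 array of each kind the difference between the pairs leaves no residual degree of freedom and was not tested.

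**Figure D1:**
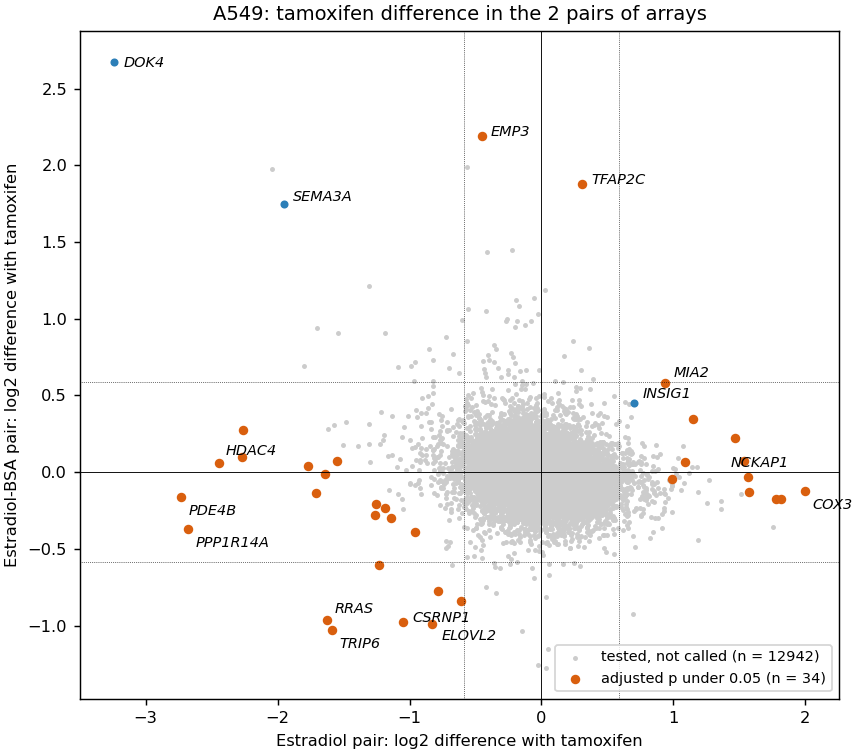
Log2 difference with tamoxifen for each of the 12976 genes tested, with the estradiol pair on the horizontal axis and the estradiol-BSA pair on the vertical axis; orange points are the 34 genes past the threshold and dotted lines mark 1.5-fold. Most orange points lie along the horizontal axis, with the estradiol-BSA pair near 0, while TRIP6, RRAS, CSRNP1 and ELOVL2 lie in the lower left corner.

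The promoters of 3 of the 8 genes lower in both pairs are shown first, with that of INSIG1, the leading sterol-regulated gene described further on. They are printed so that the start regions of genes that moved together can be compared. The letters run 5′ to 3′ on the gene's strand and come from RefSeq on GRCh38.p14. The windows are chr7:100867137-100867386 (+) for TRIP6, chr3:39153592-39153841 (-) for CSRNP1, which has 2 listed starts and is shown at the downstream one, chr6:11044306-11044555 (-) for ELOVL2 and chr7:155297628-155297877 (+) for INSIG1. Each is the upstream flank of the transcription start, 250 bases long. Capitals mark 3 short motifs searched on both strands: the E-box CACGTG, the Sp1 box GGGCGG and the AP-1 site TGAGTCA, all other letters being lower case and overlapping Sp1 boxes running together.

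TRIP6: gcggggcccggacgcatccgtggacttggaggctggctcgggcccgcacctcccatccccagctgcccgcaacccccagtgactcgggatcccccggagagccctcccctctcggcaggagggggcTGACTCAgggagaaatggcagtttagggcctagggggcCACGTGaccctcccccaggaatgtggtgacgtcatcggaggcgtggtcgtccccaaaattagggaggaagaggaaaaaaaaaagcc
CSRNP1: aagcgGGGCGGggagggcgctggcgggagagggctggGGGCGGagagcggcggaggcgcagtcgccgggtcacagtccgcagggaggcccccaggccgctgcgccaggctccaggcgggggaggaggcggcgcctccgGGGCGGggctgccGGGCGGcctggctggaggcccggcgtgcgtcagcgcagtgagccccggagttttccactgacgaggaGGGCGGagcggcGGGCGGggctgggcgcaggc
ELOVL2: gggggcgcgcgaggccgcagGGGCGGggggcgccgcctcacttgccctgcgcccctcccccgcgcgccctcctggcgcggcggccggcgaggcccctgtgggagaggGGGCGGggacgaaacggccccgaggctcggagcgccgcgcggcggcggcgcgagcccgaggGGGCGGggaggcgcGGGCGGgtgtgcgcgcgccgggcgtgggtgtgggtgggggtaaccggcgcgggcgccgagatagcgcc
INSIG1: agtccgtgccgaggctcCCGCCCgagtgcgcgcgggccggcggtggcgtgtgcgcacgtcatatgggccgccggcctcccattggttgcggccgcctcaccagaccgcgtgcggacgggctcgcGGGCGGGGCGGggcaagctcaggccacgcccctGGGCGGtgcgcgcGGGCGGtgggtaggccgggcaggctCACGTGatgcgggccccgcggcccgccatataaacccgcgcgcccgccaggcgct

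TRIP6 held 1 E-box and 1 AP-1 site and no Sp1 box in this window. CSRNP1 held 6 Sp1 boxes and ELOVL2 held 4, and neither held an E-box or an AP-1 site. INSIG1 held 1 E-box and 5 Sp1 boxes. Of 35116 promoter windows of the same length, 6.34% hold the E-box, 42.6% the Sp1 box and 4.2% the AP-1 site. A match of this kind is a description of letters.

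Among the 8 genes, 3 encode proteins of adhesion and Ras signalling. TRIP6, a LIM-domain protein of focal adhesions that also enters the nucleus, had an intensity of 176 with estradiol and 47.7 with estradiol and tamoxifen, 189 with estradiol-BSA and 84.6 with estradiol-BSA and tamoxifen, and 152 with vehicle. Both tamoxifen arrays were below all 3 others. The mean difference was 2.48-fold (log2 -1.31 ± 0.18, SE, 2 pairs; 3.01-fold and 2.04-fold in the pairs; limma adjusted p = 3.45e-09, and up to 0.999941 over the alternatives). Less signal in a culture can mean less RNA per cell or fewer cells that express the gene, and these cannot be told apart in bulk RNA.

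RRAS, a Ras-family GTPase that favours integrin activation, had 448 with estradiol and 135 with tamoxifen added, then 321 with estradiol-BSA and 157 with tamoxifen added. Vehicle was 110, below all 4, so the tamoxifen arrays lay between vehicle and the estrogen arrays. The fit gave 2.45-fold (log2 -1.29 ± 0.19, SE; limma adjusted p = 3.71e-08, and up to 0.955 over the alternatives). PTPRM, a receptor tyrosine phosphatase that binds its like on neighbouring cells, had 452 and 579 with the estrogens, 291 and 316 with tamoxifen, and 384 with vehicle. Its tamoxifen arrays were the lowest of the 5, at 1.65-fold (log2 -0.72 ± 0.19, SE; limma adjusted p = 0.0494), and its other probe set was at -0.17.

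The nuclear protein gene CSRNP1, first described as a gene raised by AXIN1, had 162 with estradiol and 70.1 with tamoxifen added, 123 with estradiol-BSA and 54.5 with tamoxifen added, and 160 with vehicle. The pairs agreed closely, at log2 -1.05 and -0.97, and the tamoxifen arrays were below all 3 others. The mean difference was 2.01-fold (log2 -1.01 ± 0.18, SE; limma adjusted p = 2.89e-05, and up to 1 over the alternatives).

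ELOVL2, an elongase of very long polyunsaturated fatty acids, had 232 and 222 with the estrogens, 124 and 104 with tamoxifen and 92.1 with vehicle. The 2 tamoxifen arrays were near vehicle and both estrogen arrays well above it. The fit gave 1.88-fold (log2 -0.91 ± 0.19, SE; limma adjusted p = 0.00118, and up to 1 over the alternatives), while a dimmer probe set was at -0.28.

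FAM86B2-DT, named as a divergent transcript of FAM86B2, had 153 and 109 with the estrogens and 56.1 and 66.3 with tamoxifen, against 91.6 with vehicle (log2 -0.92 ± 0.18, SE; limma adjusted p = 0.000285). Its other probe set was at -0.24. ASB4, a substrate receptor of cullin ubiquitin ligases, had 105 and 67.5, then 54.3 and 32.8, against 19.7 with vehicle. Its pairs were equal at log2 -0.78 (SE 0.17; limma adjusted p = 0.00447), but the other 5 probe sets had a median of -0.06. NBEA, a scaffold of membrane traffic that binds protein kinase A, had 116 and 125, then 66.2 and 76.8, against 72.7 with vehicle, and did not pass (log2 -0.64 ± 0.18, SE; limma adjusted p = 0.110). It was named after its values were seen, to complete the 8. TRIP6, RRAS and CSRNP1 have no other probe set, so no other measurement on these arrays bears on them.

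These 3 genes had the 3 smallest p-values of all genes under trimmed mean scaling, quantile normalization, the mean of all probe sets, no pairing and a pooled spread, in some order. In the fit with all settings as described they ranked 3, 5 and 9, and with 1 array left out between 9 and 363. With the mean of all probe sets they were the 3 genes that passed. Each of the 3 has only 1 probe set, so that setting left their values unchanged. It altered genes with several, such as PDE4B (log2 -1.45 to -0.49), so the rank under it is no separate check. Nor are the other ranks a separate check, since the 3 belong to the 8 picked on these same arrays for large changes that agreed in both pairs. All 5 of those settings had finite prior degrees of freedom, so such agreement itself favours a small p. Under trimmed mean scaling the limma adjusted p was 0.107 for TRIP6, 0.107 for RRAS and 0.209 for CSRNP1, and under quantile normalization 0.358, 0.358 and 0.579. With any array left out the log2 difference stayed between -1.64 and -0.98 for TRIP6, -1.52 and -1.06 for RRAS, and -1.19 and -0.83 for CSRNP1. The vehicle array was read beside these genes as a single array that itself stood 2-fold from the mean of the 4 in 285 genes, 272 of them lower. Of the 8, the estrogen arrays were both above vehicle in 7 (CSRNP1 had 1 of 2 above). The 8 were chosen for estrogen arrays above their tamoxifen partners, which favours such a count. The share over all genes was not computed, so the count is a description and not a test. Both tamoxifen arrays were below vehicle for TRIP6, CSRNP1, FAM86B2-DT and PTPRM, and both above it for RRAS, ELOVL2 and ASB4.

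**Figure D2:**
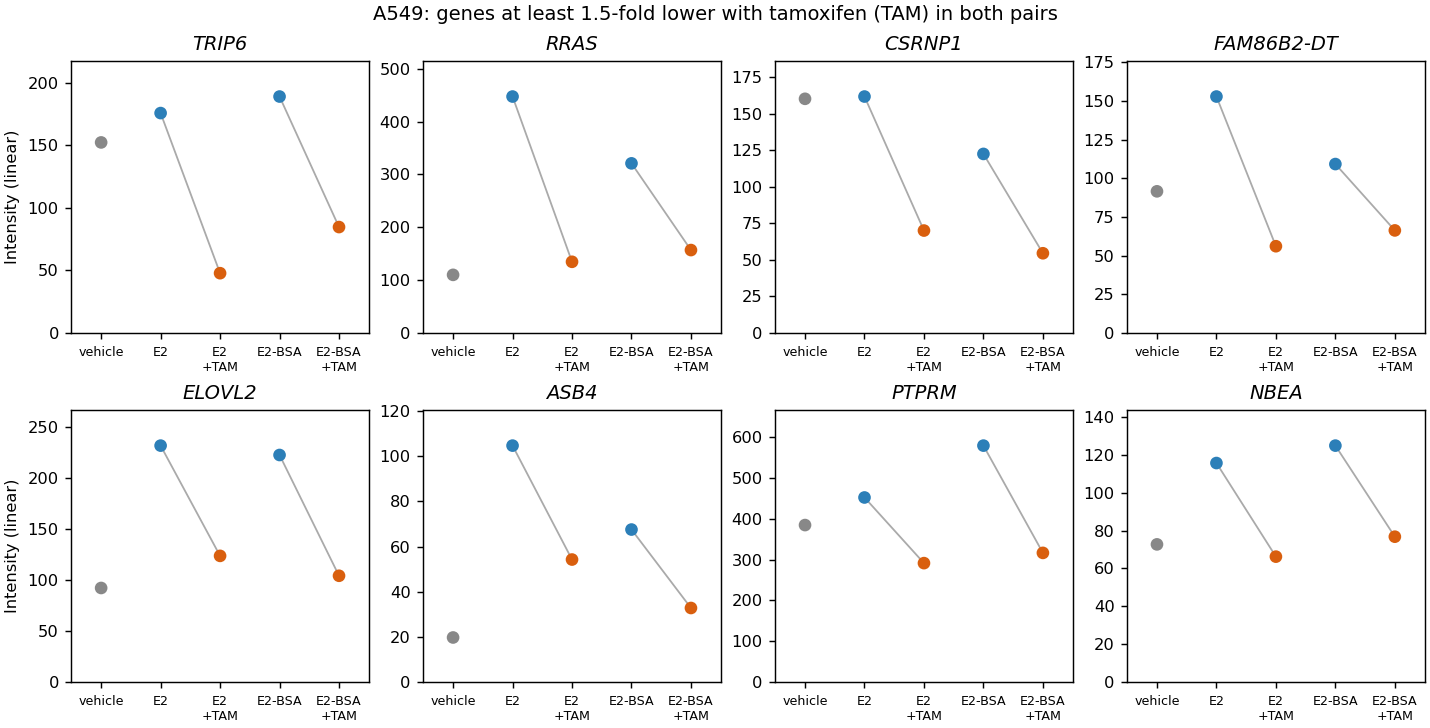
Intensity (linear axis from 0) of the 8 genes at least 1.5-fold lower with tamoxifen in both pairs, 1 point per A549 array; grey is vehicle, blue an estrogen alone, orange the same estrogen with tamoxifen (TAM), and a line joins each pair. Every line falls from left to right, while vehicle lies near the tamoxifen arrays for RRAS and ELOVL2 and near the estrogen arrays for TRIP6 and CSRNP1.

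The genes of larger change in the estradiol pair mostly rested on a single array. For 19 of the 34 genes past the threshold, 3 arrays lay within 0.5 of each other on the log2 scale and the fourth at least 1 away from their mean. The estradiol array was the odd one for 10 of them and the array with estradiol and tamoxifen for 9. In 18 of the 34 the estradiol-BSA pair lay within 0.25 of 0, and in none did the estradiol pair. Where a gene past the threshold had another bright probe set, in 9 cases, 5 of those moved in the same direction and 0 reached 0.5 times the size.

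On the array with estradiol and tamoxifen, 19 genes were low alone. PDE4B, a phosphodiesterase that degrades cyclic AMP, had 478 with estradiol, 58.4 with tamoxifen added, 630 and 562 in the estradiol-BSA pair and 154 with vehicle. It differed 6.64-fold in the first pair and 1.12-fold in the second (log2 -1.45 ± 0.19, SE; limma adjusted p = 2.52e-10), and its bright other probe set was at -0.0035. HDAC4, a class IIa histone deacetylase, had 142 and 12.9, then 126 and 133, with 12.4 for vehicle, and another bright probe set at 0.03.

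The transcription factor gene TFAP2A had 343 and 59.0, then 276 and 338, and vehicle at 33.1. The ETS-family repressor ERF had 198 and 46.9, then 201 and 206. NEMP1, of the inner nuclear membrane, had 211 and 31.0, then 192 and 206. In each the array with estradiol and tamoxifen was the only low one of the 4. RASGEF1A, a Ras exchange factor (log2 -1.71 and -0.13 in the pairs), INAVA, which supports epithelial junctions and innate signalling (-1.64 and -0.01), and NDUFAF2, an assembly factor of respiratory complex I (-1.55 and 0.07), showed the same shape. PPP1R14A, an inhibitor of myosin phosphatase, had the smallest p of all: 217 with estradiol, 20.4 with tamoxifen added, 354 and 270 in the other pair, and 75.8 with vehicle (log2 -1.52 ± 0.19, SE; limma adjusted p = 6.42e-12). Its pairs were 6.40-fold and 1.29-fold. The values of 217, 354 and 270 spread beyond 0.5 on the log2 scale, so PPP1R14A is not counted among the 19. Of the 19 genes, 9 had another probe set of their gene that reached the filter, and in 0 of 9 did it follow by 0.5.

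On the estradiol array the odd genes were mostly low, so that they counted as higher with tamoxifen. COX3, a mitochondrially encoded subunit of cytochrome c oxidase, had 177 with estradiol, 756 with tamoxifen added, 935 and 859 in the other pair and 410 with vehicle (log2 0.94 ± 0.18, SE; limma adjusted p = 0.000274). NCKAP1, of the WAVE actin-nucleating complex, had 789 and 2370.0, then 2626 and 2564. ACTL6A, a subunit of BAF chromatin remodelling complexes, had 209 and 637, then 652 and 687. For both, vehicle at 879 and 219.6 was near the estradiol array.

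PARD6B, a polarity protein (log2 1.78 and -0.17 in the pairs), ATP11A, a phospholipid flippase (1.82 and -0.18), ACSL4, which activates polyunsaturated fatty acids (1.58 and -0.13), PRKAR1A, a regulatory subunit of protein kinase A (0.99 and -0.04), and RAD21, of cohesin (1.09 and 0.07), had the same shape. CYP24A1, which inactivates vitamin D hormone, had 1537 and 4286, then 3302 and 3854, with 1293 for vehicle (log2 0.85 ± 0.12, SE; limma adjusted p = 3.71e-08). PARD6B had 390, 637 and 563 on the arrays other than estradiol and vehicle, a spread beyond 0.5 on the log2 scale, so it is not among the 10. Over all tested genes 45 stood alone on the estradiol array, 38 of them lower. Other probe sets that reached the filter followed by 0.5 for 2 of the 23 genes that had such probe sets. On the estradiol-BSA array and its tamoxifen partner 3 and 2 genes stood alone.

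**Figure D3:**
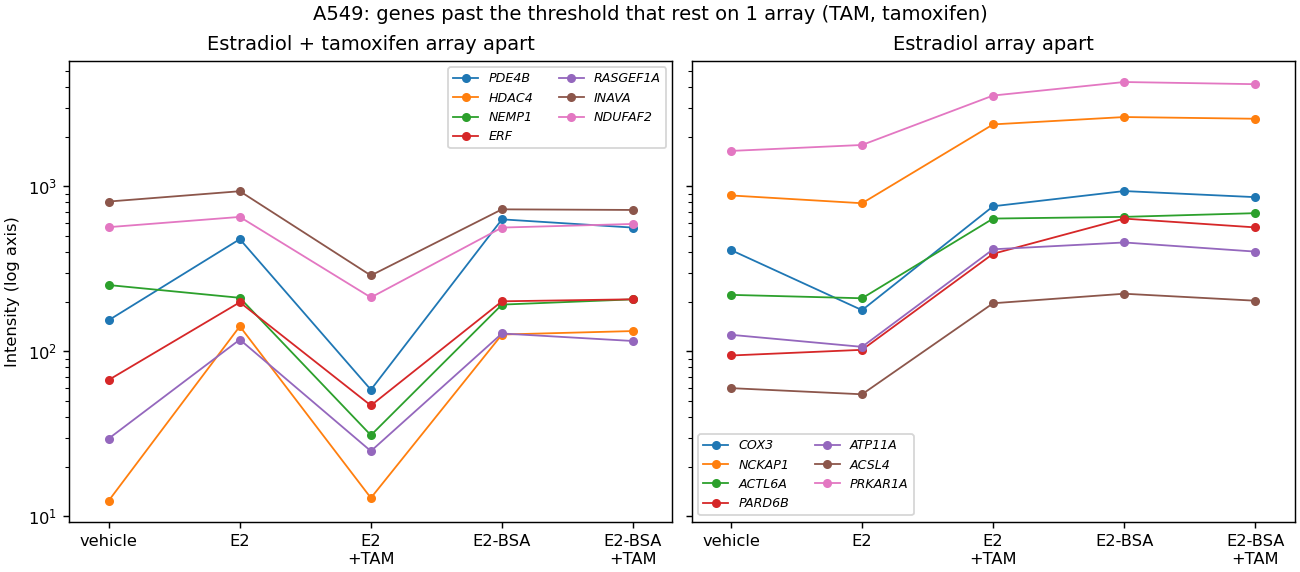
Intensity (log axis) on the 5 A549 arrays of genes past the threshold that rest on 1 array, each line a gene. PARD6B is drawn with them, though its other 3 estrogen arrays spread beyond the limit of 0.5 on the log2 scale. On the left the array with estradiol and tamoxifen is low while the other 3 estrogen arrays are alike; on the right the estradiol array is low, with vehicle beside it except for COX3, whose vehicle value of 410 lies higher.

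Other genes differed more in the estradiol-BSA pair than in the estradiol pair, a difference that was not tested. TFAP2C, a relative of TFAP2A, had 260 and 326 in the estradiol pair and 116 and 470 in the estradiol-BSA pair, with vehicle at 126. The estradiol-BSA array was the lowest of the 4 (log2 1.09 ± 0.19, SE; limma adjusted p = 1.94e-05), and the other bright probe set was at -0.23. EMP3, a membrane protein of epithelia, had 594 and 430, then 62.8 and 343, with vehicle at 141, so its pairs went in opposite directions (log2 -0.45 and 2.19). It passed at a mean of 0.87 (limma adjusted p = 0.00408).

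BMP6, a ligand of the BMP family, had 298 and 254, then 58.6 and 187, and did not pass (limma adjusted p = 0.227). The decoy death receptor gene TNFRSF10D had 82.9 and 84.8, then 85.5 and 215, and did not pass either (0.198). VASN, a cell-surface protein that binds TGF-beta, had 51.6 and 53.4, then 148 and 51.6, high with estradiol-BSA alone (limma adjusted p = 0.110).

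DOK4, an adaptor of receptor tyrosine kinases, showed the widest disagreement. It had 402 with estradiol, 28.3 with tamoxifen added, 30.6 with estradiol-BSA and 282 with tamoxifen added, and 43.5 with vehicle, so its pairs were log2 -3.24 and 2.68. SEMA3A, a secreted guidance ligand, had 261 and 55.5, then 73.0 and 282, and the antisense transcript CLN8-AS1 had 306 and 62.4, then 47.7 and 234. All 3 were high on the estradiol array and on the array with estradiol-BSA and tamoxifen. None passed in the fit, which averages the pairs (limma adjusted p = 1 for each). The 2 other probe sets of DOK4 had means of -0.49 and 0.10 in the pairs, and the bright other probe set of SEMA3A was at 0.75 and -0.03.

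Some other genes past the threshold moved the same way in both pairs, but part of them also rest on 1 array by the rule above. FLRT2 and UPK3B were high on the estradiol array alone, and DPYD was low on the array with estradiol and tamoxifen alone. With 1 array left out, the log2 difference shrank to as little as -0.37 for FLRT2, -0.27 for UPK3B and -0.09 for DPYD. FLRT2, a cell adhesion protein (log2 -1.26 and -0.28), DPYD, the enzyme that degrades pyrimidines (-1.25 and -0.20, but a mean of -0.19 and not past the threshold from the probe set brightest over 10 arrays), UPK3B, a uroplakin (-1.14 and -0.30), RAP1GAP, which inactivates the GTPase RAP1 (-1.19 and -0.24), and CASC7 (-0.96 and -0.39) were lower. MIA2, of cargo export from the endoplasmic reticulum, was higher in both pairs (0.94 and 0.58): it had 31.6 and 75.1, then 106 and 166, with 40.8 for vehicle (limma adjusted p = 0.0107). Its 3 further probe sets had a median of 0.06. A Y-linked gene was also called and is not shown.

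Genes of pathways linked to tamoxifen and estrogen were read from 24 lists. Of their 388 members tested, limma called 0, while 15 were below 0.05 before adjustment. At the share of all genes, 0.262%, 1.02 would pass, so the count is near the background. Over all 12976 genes the median log2 difference was -0.02 and 43.1% lay above 0, and the lists are read beside that. Genes of G1/S and replication had a median of -0.11, with 5 of 25 above 0, and those of G2/M and mitosis -0.09, with 5 of 22 above 0. These shifts were in the estradiol pair, at -0.24 and -0.26, while the estradiol-BSA pair had 0.0048 and 0.08. CDC45, of the replicative helicase, had 87.0 and 62.6, then 67.5 and 52.5, with 140 for vehicle. CDC20, an activator of the anaphase-promoting complex, had 704 and 466, then 508 and 492. Lysosome genes had -0.10, with 5 of 19 above 0, again at -0.24 in the estradiol pair and 0.06 in the other. Without the estradiol array the medians were -0.05 for G1/S, -0.00048 for G2/M and 0.05 for lysosome genes, beside 0.02 for all genes, and the median of the BMP and TGF-beta response list was 0.24 in place of -0.0058. In all, 10 of the 24 list medians moved by more than 1 SD of their pair medians.

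Sterol synthesis and uptake genes had a median of 0.04 (0.04 and 0.09 in the pairs, and 0.10 without the estradiol array), and 10 of 19 lay above 0. INSIG1, a sterol-regulated brake on sterol synthesis, had 451 with estradiol and 742 with tamoxifen added, 430 with estradiol-BSA and 594 with tamoxifen added, and 287 with vehicle. Both tamoxifen arrays were above the other 3, at 1.49-fold, but it did not pass (log2 0.57 ± 0.18, SE; limma adjusted p = 0.308), and 2 other probe sets had a mean of 0.23. MSMO1, a demethylase of cholesterol synthesis, had 1026 and 1275, then 962 and 1070.4 (limma adjusted p = 1), and HMGCS1, at the head of the pathway, 337 and 357, then 332 and 386. Of genes for sterol efflux and fatty acid synthesis, MYLIP, a ligase that degrades the LDL receptor, had 214 and 152, then 186 and 133 (log2 -0.45 and -0.44), and SREBF1, a regulator of lipid synthesis, 632 and 441, then 448 and 410.2. The list's median was -0.07 (-0.25 and 0.00055 in the pairs, and 0.02 without the estradiol array), with 6 of 13 above 0, and neither gene passed.

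In the fit over both pairs, stress lists had medians close to that of all genes, -0.02, but most were higher without the estradiol array. The integrated stress response had 0.05, with 15 of 23 members above 0 (0.08 and 0.11 in the pairs, and 0.11 without the estradiol array). CHAC1, a glutathione-degrading enzyme, had 32.6 and 42.2, then 29.8 and 36.1, and PSAT1, of serine synthesis, 2263 and 2668, then 2545 and 2768. DNAJB9, a chaperone of the endoplasmic reticulum, was the same in both pairs (log2 0.23 and 0.25), and its 2 other bright probe sets had a mean of 0.55, while the list had a median of -0.03 with 10 of 21 above 0 (-0.15 and 0.08 in the pairs, and 0.11 without the estradiol array). The co-chaperone BAG3 was at 0.26 and 0.16, and the heat shock list had a median of -0.0040 (0.02 under both other scalings, and 0.04 without the estradiol array). The autophagy gene GABARAPL1 was at 0.21 and 0.23, with a median of -0.03 for its list (-0.11 and 0.10 in the pairs, and 0.11 without the estradiol array). None of these genes passed. Without the estradiol array all genes had a median of 0.02, with 7349 of 12976 above 0. There the list of endoplasmic reticulum chaperones and degradation had 21 of 21 members above 0. The integrated stress response had 19 of 23, autophagy 12 of 15 and heat shock 10 of 14. The estradiol-BSA array was then the only array without tamoxifen, and the shift of these lists was not tested.

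ERK feedback genes had the highest list median, 0.10, with 11 of 14 above 0 (0.08 and 0.04 in the pairs, and 0.03 without the estradiol array), and DUSP6, a phosphatase of ERK, was at 0.46 and 0.20. Immediate early genes, which ERK and serum induce, had -0.07 with 7 of 21 above 0, and 0.01 without the estradiol array. Among them were CCN2, a matricellular growth factor (-0.73 and -0.23), and the transcription factor SRF (-0.28 and -0.30). PTGS2, the inducible cyclooxygenase, had 1161 and 1659, then 996 and 1175, and its other probe set was at 0.80, in a list of NF-kB targets with a median of -0.04 (0.02 under quantile normalization, and -0.09 without the estradiol array). RELB, a subunit of NF-kB, went the other way in the same list, with 52.1 and 35.7, then 48.5 and 35.8. IRF9, of interferon signalling, was at -0.50 and -0.29. None of these 6 genes passed.

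Of p53 targets and apoptosis genes, FAS, the death receptor, had 244 and 160, then 206 and 135, with 40.9 for vehicle. The pairs agreed at log2 -0.56 and -0.55, the tamoxifen arrays lay below the estrogen arrays and above vehicle, and the gene did not pass (limma adjusted p = 0.467). Its 3 other bright probe sets had a median of -0.21, with medians of -0.48 in the estradiol pair and 0.06 in the estradiol-BSA pair. The pro-apoptotic BID (-0.29 and -0.34) and BAK1 (-0.26 and -0.28) were lower and the anti-apoptotic BCL2 higher (0.41 and 0.32) in both pairs, though 2 other probe sets of BCL2 had a mean of -0.06, and none passed. The p53 list had a median of -0.02, with 8 of 18 above 0, and apoptosis regulators -0.03, with 8 of 17, and both medians turned to 0.01 under quantile normalization and to 0.04 without the estradiol array.

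Classical estrogen targets had a median of 0.02, with 9 of 17 above 0, against 43.1% of all genes. Their median was 0.07 and -0.0088 in the pairs and 0.0096 without the estradiol array. TFF1, a secreted trefoil peptide induced by ESR1 in breast cells, had 157 and 108, then 160 and 143, with 92.6 for vehicle. Both differences were downward (log2 -0.48 and -0.15), and the limma adjusted p was 1. FOXA1, a pioneer factor for ESR1, had 134 and 85.1, then 126 and 113, and GATA3, another partner, 99.1 and 86.7, then 90.7 and 63.4. CYP1B1, which hydroxylates estradiol and is induced by the aryl hydrocarbon receptor, had 557 and 683, then 577 and 792 (0.29 and 0.45), and its 2 other bright probe sets had a mean of 0.47. None of these 4 passed.

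The receptors themselves were close to the filter. ESR1 had 19.9 and 26.2, then 20.8 and 21.2, and ESR2 had 23.0 and 25.9, then 19.3 and 29.1, with vehicle at 26.6 and 43.8. GPER1 had 19.1 and 29.6, then 27.1 and 23.4, with opposite signs in the pairs. PGR, a classical target of ESR1, was at 4.60 to 6.16 and was not tested. None of the 3 tested receptors passed (limma adjusted p = 1 for each), and intensities this close to the filter do not show that a gene was expressed. The missed threshold does not show that tamoxifen left these pathways as they were. The 95% interval of a gene was 1.27-fold wide on each side at the median and lay within 2-fold for 99.7% of genes, as far as the shared spread of the fit holds.

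**Figure D4:**
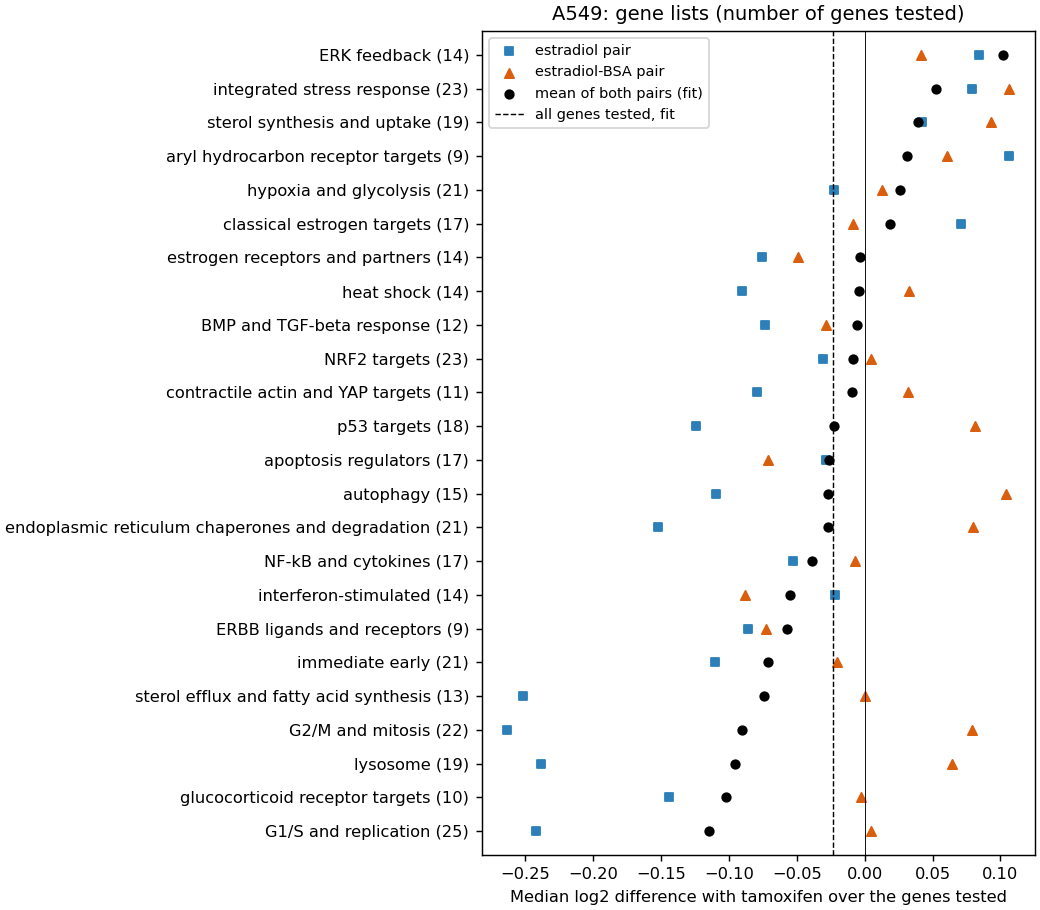
Median log2 difference with tamoxifen of each of the 24 pathway lists over its genes tested (number in brackets); squares are the estradiol pair, triangles the estradiol-BSA pair, circles the fit over both, and the dashed line is the median of all genes tested, -0.02. The medians of the fit stay within -0.11 and 0.10, and for cell cycle and lysosome lists the squares lie left of the triangles.

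The same treatment in HTB-182 gave 10 genes past the threshold (limma; 0.0771%), 6 higher (0.0462%) and 4 lower (0.0308%), and 0 of them were among the 34 of A549. That fit used the genes and probe sets chosen by their level on the A549 arrays, so genes bright only in HTB-182 were not tested. With 0.262% called in A549 and 0.0771% in HTB-182, hardly any shared gene would be given by chance. The 0 is therefore a description. The test of the difference between the lines, over 12926 genes, called 0 (limma adjusted p under 0.05), with 318 at an unadjusted p under 0.05 and a smallest adjusted p of 0.525, for WASF3. No change is therefore called particular to A549. The fits without 1 array ran from 5 to 1242 genes, the latter without the A549 array of estradiol-BSA and tamoxifen. Without the A549 estradiol-BSA array 1238 passed, without the A549 estradiol array 31, without its tamoxifen partner 28, and without an HTB-182 array 5 to 9.

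The 8 genes lower in both A549 pairs were dim in HTB-182, where TRIP6 had 17.6 and 14.2, then 11.9 and 19.7, and RRAS was at 9.02 to 13.2. CSRNP1 had 32.2 and 29.2, then 46.8 and 42.3, and was the brightest of the 3 there. For TRIP6 and RRAS, most of these values lay under the filter level of 18.5. The difference of the tamoxifen effects, A549 minus HTB-182, was log2 -1.41 ± 0.25 (SE) for TRIP6, -1.30 ± 0.24 for RRAS and -0.91 ± 0.16 for CSRNP1, each at a limma adjusted p of 0.999.

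WASF3, an actin regulator lower with tamoxifen in HTB-182 (log2 -1.41 and -1.62), had 21.6 and 17.7, then 16.9 and 20.2, in A549, near the filter and with no common direction. P3H1, a collagen prolyl hydroxylase (-1.19 and -1.09 in HTB-182), had 75.3 and 75.1, then 70.1 and 62.6, in A549. NOTCH3, a Notch receptor, was lower in both A549 pairs (-0.71 and -0.48) and higher in both HTB-182 pairs (0.38 and 0.35), while its other probe set in A549 was at 0.11, and neither the A549 effect (limma adjusted p = 0.110) nor the difference (0.999) passed. INSIG1 and MSMO1 were above 0 in all 4 pairs: 0.24 and 0.17 for INSIG1 and 0.28 and 0.41 for MSMO1 in HTB-182. MSMO1 was among the genes past the threshold in HTB-182 (limma adjusted p = 0.0421). DNAJB9, BAG3, CHAC1 and DUSP6 were above 0 in all 4 pairs as well.

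**Figure D5:**
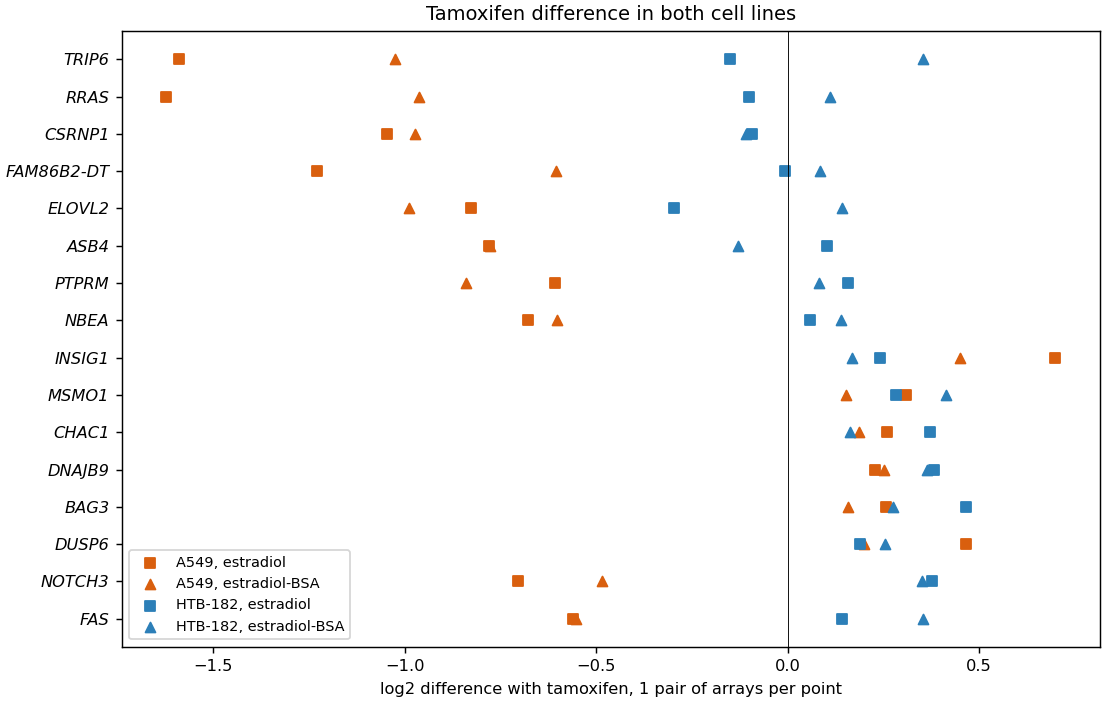
Log2 difference with tamoxifen in each pair of arrays, 1 point per pair, for the 8 genes lower in both A549 pairs and 8 others named in the text; orange is A549, blue HTB-182, squares the estradiol pair and triangles the estradiol-BSA pair. The orange points of TRIP6, RRAS and CSRNP1 lie between -1.62 and -0.96 while the blue points lie between -0.15 and 0.35. For INSIG1, MSMO1, CHAC1, DNAJB9, BAG3 and DUSP6 all 4 points lie right of 0.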

How the data were processed

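Total RNA of the 10 samples was labelled for Affymetrix human expression arrays, per the labels' protocols. The authors deposited 1 table of intensities on a linear scale, and the submitters' processing notes name MAS5 alone. No version, background method or scaling target of MAS5 is named in the sources used here. The trimmed means of the A549 arrays (2% left out at each end) ran from 105.9 to 115.7, so the arrays were not on exactly the same scale. The table held 54675 probe sets. The 62 controls were left out, 41091 probe sets name 1 gene, 1801 several and 11721 none here. The 1-gene probe sets were kept, with symbols checked against RefSeq (41037 found, 0 changed). Each of 19775 genes was read from the probe set brightest on the 4 arrays. From the deposited intensities, log2(intensity + 16) was computed, and genes were tested if their mean reached the median of all probe sets.

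limma 3.58.1 in R 4.3.3 was fitted to the 4 arrays with the estrogen form as the block that pairs them, Benjamini-Hochberg adjustment at 0.05 and a trend on intensity. This leaves 1 residual degree of freedom. The lines were compared by a line by tamoxifen term over 8 arrays, with 2 residual degrees of freedom. An exact permutation test over 2 pairs cannot go below 0.5 and was not used. Each group held 1 array, whose number limits the precision. The pairing comes from the labelled estrogen form, and the labels give no replicate numbers. The code was tested on simulated data. Named genes were the 15 largest past the threshold in each direction that agreed in both pairs, up to 4 members of each list whose pairs agreed, receptors, genes of largest line difference, and genes of largest change in 1 pair or of opposite signs. The text describes those with known roles first, and genes added after their values were seen were NBEA, TFAP2A, NDUFAF2, PRKAR1A, EMP3 and CASC7. The genes, gene lists and tests were chosen with earlier results of these data known. Promoters came from a RefSeq table that held 7 of 9 genes looked up.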

Additional observations from a re-analysis of the deposited data

Results flagged for a closer look

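For 21 of the genes tested the pairs moved in opposite directions by at least 1.5-fold each, 20 of them lower in the estradiol pair, and 3 of these are described. The difference between the pairs was not tested, since each array is single. The log2 difference with tamoxifen in the estradiol-BSA pair minus that in the estradiol pair was 5.91 for DOK4, 3.70 for SEMA3A and 4.01 for CLN8-AS1. In all 3, signal was high on the estradiol array and on the array of estradiol-BSA with tamoxifen.

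Controls for the dap transcript, which is added to samples from outside, were higher with tamoxifen in both pairs for 6 of 6 probe sets, by a median log2 of 0.551 with estradiol and 0.475 with estradiol-BSA. The lys, thr and phe controls also had medians above 0 in both pairs: 0.19 and 0.22 for lys, 0.16 and 0.44 for thr, 0.04 and 0.24 for phe. Of their probe sets that reached the filter, 4 of 4, 3 of 4 and 3 of 5 were higher in both pairs. In HTB-182 the dap medians were 0.24 and 0.02, and those of lys, thr and phe were above 0 as well. These controls entered no comparison, and their part in the results was not tested.

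Of 4216 probe sets at a tested level without a single gene name, 3 differed by at least 1.5-fold the same way in both pairs. The first, which names several genes, was at 0.735 in the estradiol pair and 0.97 in the other, with 165 and 286, then 135 and 280.2. Another, which also names several, was at 0.624 and 0.70. The last, with no gene name here, was at -1.16 and -0.80: it had 279 and 116, then 332 and 183, and 17.1 with vehicle.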

How the results depend on the processing

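The 34 genes past the threshold were 36 with a pseudocount of 1, 26 with 64, 31 with a filter at the 75th percentile, 33 with the probe set brightest over 10 arrays and 31 without the trend. They were 8 without a filter, 3 with the mean of all probe sets, and 0 with trimmed mean scaling, with quantile normalization, without the estrogen form as a block and with a spread pooled over both lines. The prior degrees of freedom were infinite for the 34 and 5.71 to 9.31 in the fits with 0, while the cause of each count was not tested. The labels give no replicate numbers, so no other pairing was possible. With 1 array left out, where the lone array is assumed to vary like the rest, the count was 2 without estradiol, 1 without its tamoxifen partner, 197 without estradiol-BSA and 22 without its partner, a range of 1 to 197. The count of genes 1.5-fold apart in both pairs, 8, was 24 with a pseudocount of 1, 4 with 64, 3 with the mean of all probe sets and 6 to 8 otherwise. The line difference stayed at 0 genes in every alternative that kept all 8 arrays and ran from 5 to 1242 with 1 left out. The number of arrays limits both comparisons.

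Of 76 genes named, each kept its direction in the alternatives with all 4 arrays, except NOTCH3 with the probe set brightest over 10 arrays (log2 0.11), WASF3 with trimmed mean scaling (0.0061) and CLN8-AS1 with quantile normalization (0.024). With 1 array left out 19 turned. Without the estradiol array PRKAR1A was at -0.16, ACSL4 at -0.15, NCKAP1 at -0.091, PARD6B at -0.43, ATP11A at -0.15 and COX3 at -0.21. There GPER1 was at -0.021, WASF3 at 0.086, DOK4 at 1.30, SEMA3A at 0.71 and CLN8-AS1 at 1.14. Without the array of estradiol and tamoxifen PDE4B was at 0.032, NEMP1 at 0.034, TFAP2A at 0.13, ERF at 0.047, WASF3 at 0.042 and DOK4 at 1.09. There SEMA3A was at 0.93 and CLN8-AS1 at 0.80. Without the estradiol-BSA array EMP3 was at -0.61, BMP6 at -0.42 and VASN at 0.019. Without the array of estradiol-BSA and tamoxifen P3H1 was at 0.040.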

Other observations

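Glucocorticoid receptor targets had a median of -0.10, with 3 of 10 members above 0 and none past the threshold, and a median of 0.04 without the estradiol array. NR3C1, the receptor gene, was higher in both pairs (log2 0.16 and 0.17), with 2223 and 2484, then 2354 and 2651. Its 4 other bright probe sets had a median of 0.03. The kinase gene SGK1 (-0.15 and -0.17) and the transcription factor gene CEBPD (-0.14 and -0.19) were lower in both. Of NRF2 targets, 11 of 23 lay above 0 at a median of -0.0089, which was 0.01 under quantile normalization. EPHX1, an epoxide hydrolase of that list, had 258 and 168, then 163 and 150.1. None of these genes passed (limma adjusted p = 1 for each).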
